A study of Mus musculus with 7 samples.

Results

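The 9 genes described here encode the gap junction and adhesion proteins of the cardiac intercalated disc: the connexins Gja1, Gja5 and Gjc1, the desmosomal genes Dsp, Pkp2, Jup, Dsg2 and Dsc2, and the N-cadherin gene Cdh2. They were selected by symbol, and all 9 were found among the 23420 gene rows of the table. RNA was sequenced from ventricles of 7 mice without any treatment, aged between 3 and 6 weeks. The 4 control mice were Ctla4+/+;Pdcd1-/- and the 3 ICI-myocarditis mice were Ctla4+/-;Pdcd1-/-, so that loss of Pdcd1 was common to both groups and the groups differed in 1 copy of Ctla4. Both genes encode inhibitory receptors of T cells, and ICI-myocarditis is named after the heart inflammation that can follow treatment with immune checkpoint inhibitors. The alleles were labelled without a driver that would restrict them to a cell type. The comparison asked which genes differed between affected and unaffected hearts.

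The intercalated disc joins heart muscle cells end to end. Gap junction channels, built from connexins, pass current between neighbouring cells. Desmosomes anchor the intermediate filaments and adherens junctions anchor the actin filaments, and in the adult heart the proteins of both mix in a zone called the area composita. Inherited defects of the desmosomal genes are known as a cause of arrhythmogenic cardiomyopathy.

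The table gave normalized counts, which are gene read counts divided by a size factor for each library. The recovered totals lay between 20931730 reads (control 2) and 39037176 reads (ICI-myocarditis 2), and each member had at least 196 reads in its lowest library. Control 2 stood apart from the other controls: on the first principal component, which held 68.6% of the variance, it lay at -2.3, the other controls between 61.2 and 96.7, and the ICI-myocarditis libraries between -105 and -58.9. Calls and separations of groups that differ without it are given beside the results they concern. The tissue was labelled as whole heart and the RNA protocol named the ventricle. Of 11 atrial and conduction markers, Bmp10 and Isl1 were at 0 in all libraries and Sln did not exceed 3.70 normalized counts, while the 14 working cardiomyocyte genes were abundant in all 7. The control mean of Ctla4 was 63.3 ± 37.4 normalized counts (SD, n = 4) and its mean in affected hearts was 302 ± 63.4 (SD, n = 3). For Pdcd1 the means were 64.8 ± 119.7 and 1305 ± 195. Neither level checks the genotype labels, because gene-level counts do not show which exons or alleles were read.

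Promoter sequences were available from RefSeq (GRCm38.p6) for 4 members. The 250 bases before the annotated start are shown for Dsp and Jup, which had the lowest p-values of the 9, and for Gja1, the main ventricular connexin, each 5′ to 3′ on the strand of its gene. They lie at chr13:38151044-38151293 on the plus strand for Dsp, chr11:100397791-100398040 on the minus strand for Jup and chr10:56377050-56377299 on the plus strand for Gja1, all directly upstream of the first exon. Capitals mark matches to the motifs described after them.
Dsp: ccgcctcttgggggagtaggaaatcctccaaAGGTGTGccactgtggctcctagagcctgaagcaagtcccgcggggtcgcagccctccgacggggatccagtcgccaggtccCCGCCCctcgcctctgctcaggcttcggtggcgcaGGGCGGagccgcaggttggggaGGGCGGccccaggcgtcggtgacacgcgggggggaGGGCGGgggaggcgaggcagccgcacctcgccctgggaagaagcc
Jup: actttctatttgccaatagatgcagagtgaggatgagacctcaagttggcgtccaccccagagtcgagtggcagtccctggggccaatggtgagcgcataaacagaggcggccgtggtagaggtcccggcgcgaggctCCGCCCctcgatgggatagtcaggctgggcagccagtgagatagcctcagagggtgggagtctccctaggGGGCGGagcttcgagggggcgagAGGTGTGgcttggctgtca
Gja1: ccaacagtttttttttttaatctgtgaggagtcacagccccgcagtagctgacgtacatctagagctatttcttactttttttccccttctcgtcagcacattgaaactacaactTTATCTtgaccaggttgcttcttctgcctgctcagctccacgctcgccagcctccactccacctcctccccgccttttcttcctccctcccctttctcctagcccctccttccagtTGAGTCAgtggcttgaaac

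Of 8 motifs searched on both strands, the Sp1 GC box (GGGCGG) was found 4 times in the Dsp window, at 137, 102, 80 and 45 bases before the start, and in 2 places in the Jup window, at 112 and 42 bases. The GC box occurs in 32.7% of all 32851 RefSeq promoter windows of this length. A T-box motif (AGGTGTG), found in 5.10% of all windows, lay 219 bases before the Dsp start and 19 bases before the Jup start. The Gja1 window held neither. It held an AP-1 motif (TGANTCA, 6.75% of all windows) at 19 bases and a GATA motif (AGATAA, read on the other strand, 9.99% of all windows) at 135 bases. The Gja5 window, which is not shown, held a GC box 17 bases before the start. No match overlapped another, and 4 of the motifs searched had no match in these 4 windows. They were the NKX2-5 site TNAAGTG (10.1% of all windows), the core promoter box TATAAA (12.4%), the STAT site TTCNNNGAA (7.02%) and the E-box CACGTG (6.02%). The Dsp window was 72.4% GC, that of Jup 62%, that of Gja5 56.4% and that of Gja1 50%, against a median of 52.4% over all windows.

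None of the 9 members passed the test between the groups in limma over all 15258 genes tested, at an adjusted p of 0.05, where 15.7% of all genes passed and 4.00% passed with a lower level in ICI-myocarditis. All 9 fold changes were nevertheless below 0, as were those of 51.9% of all genes, and the median of the 9 was -0.53 on the log2 scale against -0.02 over all genes. At an unadjusted limma p under 0.05 there were 2 members, Dsp and Jup, and 30.1% of all genes. In the authors' deposited table, Dsp had an adjusted p of 0.0217 with a log2 fold change of -0.94, and Jup an adjusted p of 0.0521 with -0.67. The other 7 members had adjusted p-values of at least 0.149 there. Of its 23420 rows, 3414 had an adjusted p under 0.05 in either direction. Without control 2, limma called 1 member, Dsp, against 7.19% of genes called lower. DESeq2 on recovered reads called 2, Dsp and Jup, where 8.40% of genes were called lower.

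**Figure D1:**
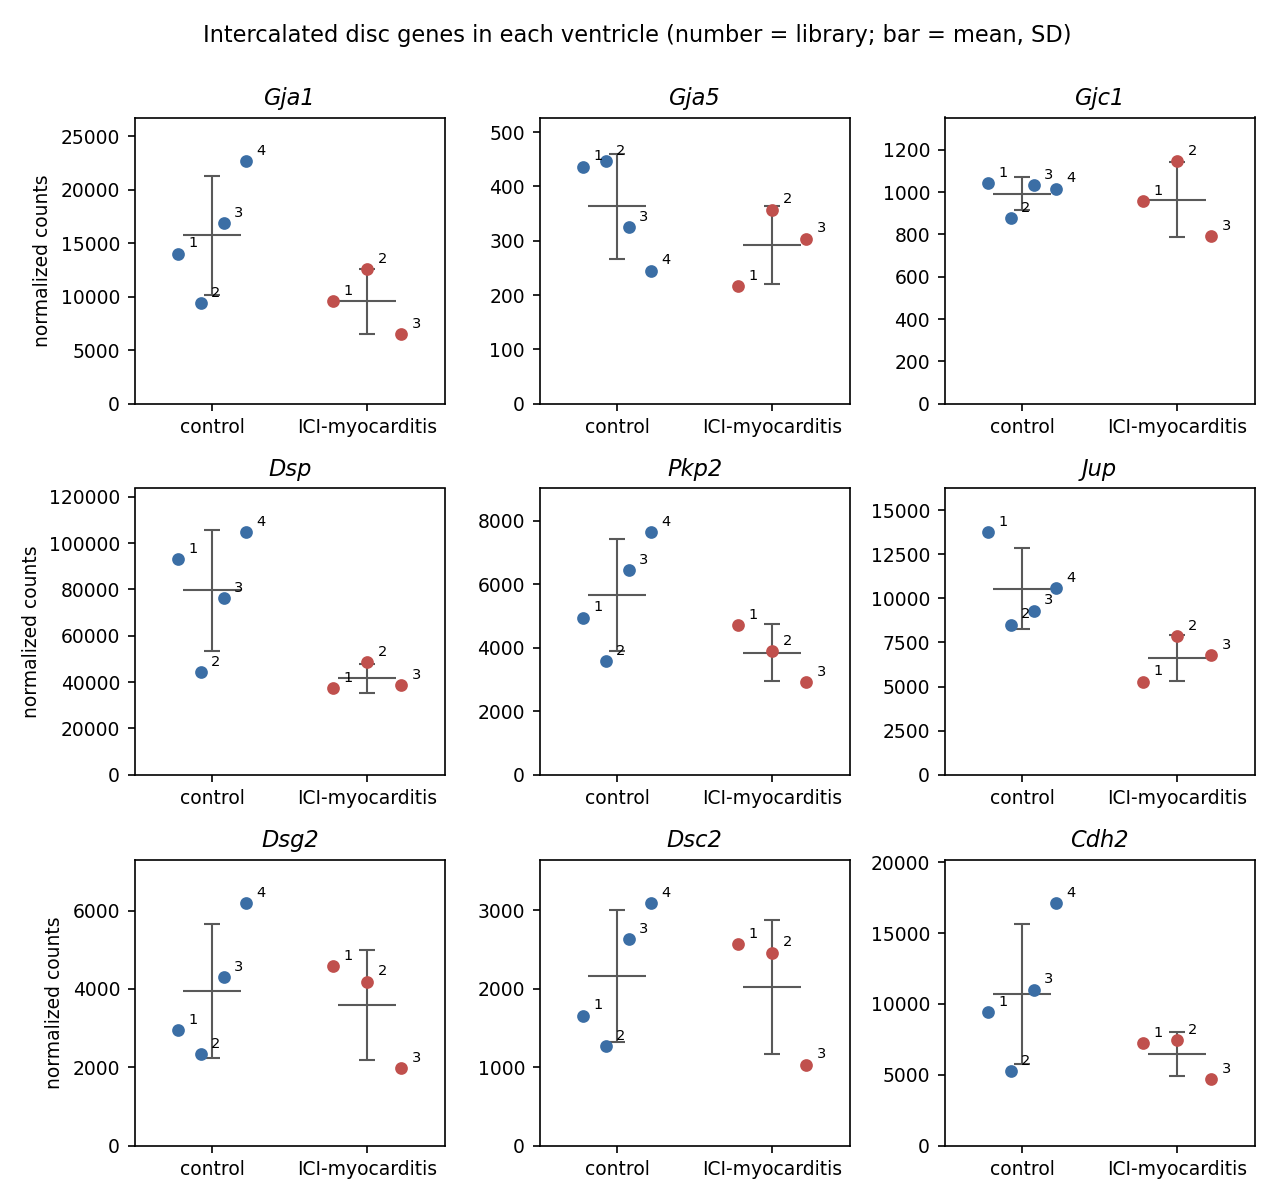
Normalized counts of the 9 intercalated disc genes in each library (points, numbered by replicate, with the group mean and SD as bars; y axis from 0). Only for Jup do all 3 ICI-myocarditis libraries lie below all 4 controls, and control 2 is the lowest control for every gene but Gja5.

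Gja1 encodes Cx43, the principal connexin of the working ventricle. In controls 1 to 4 it had 14036, 9383, 16914 and 22689.7 normalized counts, and in ICI-myocarditis 1 to 3 it had 9597, 12615 and 6538. The groups overlapped only through control 2, which lay below 2 of the ICI-myocarditis libraries. Means were 15755 ± 5568 (SD, n = 4) and 9583 ± 3038 (SD, n = 3), a log2 fold change of -0.70 with a standard error of 0.355 and an adjusted p of 0.226. Without control 2 the groups did not overlap and the log2 fold change was -0.92 with a standard error of 0.315 (adjusted p = 0.0674). The fall was smaller without control 4 (-0.50, adjusted p = 0.387) and without ICI-myocarditis 3 (-0.45, adjusted p = 0.607).

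Gja5 encodes Cx40, a connexin of the atria, the fast conduction fibres and arterial endothelium. It had 437, 447, 325 and 245 normalized counts in controls 1 to 4, and 216, 357 and 304 in ICI-myocarditis 1 to 3. The ranges overlapped widely, and here control 4, the highest control for 6 of the other members, was the lowest control. Between the groups the log2 fold change was -0.30 with a standard error of 0.282 (adjusted p = 0.523). The exons of Gja5 overlap those of Gpr89 on the opposite strand, which averaged 422.5 (controls) and 389.6 (ICI-myocarditis) normalized counts. Whether the counting used strand is not given in the sources used here, so reads from this overlap may have been assigned to either gene.

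Cells other than ventricular muscle carry Gja5, and their markers were read in the same libraries. Of 9 arterial endothelial markers, 3 fell (Efnb2, Hey1 and Stmn2) and none rose, and the summed level ranged from 5540 to 12945 normalized counts among controls and from 4609 to 7871 in affected hearts. The summed level of the 11 atrial and conduction markers ranged from 1331 to 2007 in controls and from 768 to 2344 in ICI-myocarditis. The part of these cell types in the Gja5 level was not tested.

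Gjc1 encodes Cx45, a connexin of the developing heart and of the nodal tissue. Controls 1 to 4 had 1043, 876, 1032 and 1016 normalized counts, and ICI-myocarditis 1 to 3 had 957, 1146 and 790.1. The control values were the most even of any member, and the highest and the lowest library were both from the ICI-myocarditis group. The log2 fold change was -0.05 with a standard error of 0.189 (adjusted p = 0.885), the smallest change and the smallest error among the 9.

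Among the 3 connexins, corrected for exon length, the Gja1 share of the total was 84.4% ± 4.97 among controls (SD, n = 4) against 78.8% ± 3.16 in affected hearts (SD, n = 3). Gja5 made up 3.99% ± 2.13 and 4.52% ± 1.55. The share of Gjc1 was 12.6%, 14.99%, 10.8% and 8.26% in controls 1 to 4, and 16.4%, 15.06% and 18.6% in ICI-myocarditis 1 to 3. By this length its groups did not overlap, with control 2 almost level with ICI-myocarditis 2. By the length of the longest transcript its share was 6.99% ± 1.86 and 10.2% ± 1.25, and the groups overlapped through control 2 alone. Without that library the Gjc1 share was higher and the Gja1 share lower in every ICI-myocarditis library by both lengths. The shares are parts of the same total, so a higher Gjc1 share and a lower Gja1 share are not separate results. Gjc1 itself had a log2 fold change of -0.05 and Gja1 of -0.70. No test was made of these shares.

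Dsp encodes desmoplakin, the plakin that ties the desmosome to desmin filaments. It had 92916, 44374, 76207 and 104724 normalized counts in controls 1 to 4, and 37407, 48757 and 38533 in ICI-myocarditis 1 to 3. The ICI-myocarditis libraries lay close together, and control 2 fell among them while the other controls were well above. Means were 79555 ± 26210.2 (SD, n = 4) and 41566 ± 6254 (SD, n = 3). With a log2 fold change of -0.88 (standard error 0.364) Dsp had the largest difference of the 9, at an adjusted p of 0.141. Without control 2 Dsp fell by 1.13 on the log2 scale, with a standard error of 0.289 and an adjusted p of 0.0229 in limma. Without control 4 its log2 fold change was -0.72 (adjusted p = 0.241).

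Jup encodes plakoglobin, the armadillo protein shared by desmosomes and adherens junctions. Its values were 13754, 8514, 9305 and 10594 normalized counts in controls 1 to 4, and 5270.3, 7872 and 6785 in ICI-myocarditis 1 to 3. Jup was the only member whose groups did not overlap over all 7 libraries, a separation that 11.3% of all genes tested showed in this direction. Its log2 fold change was -0.66 with a standard error of 0.259, and the adjusted p was 0.121. Leaving out control 2 gave -0.76 and an adjusted p of 0.0695, and leaving out ICI-myocarditis 1 gave -0.50 and an adjusted p of 0.313.

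Pkp2 encodes plakophilin 2, the armadillo protein that links desmoplakin to the desmosomal cadherins. Controls 1 to 4 had 4946, 3582, 6441 and 7636 normalized counts, and ICI-myocarditis 1 to 3 had 4719, 3895 and 2913. Control 2 again lay within the ICI-myocarditis range, and the other controls were above it. The log2 fold change was -0.53 with a standard error of 0.300 (adjusted p = 0.276), and without control 2 it was -0.73 (adjusted p = 0.0810). The fall was smaller without control 4 (-0.36, adjusted p = 0.465) and without ICI-myocarditis 3 (-0.34, adjusted p = 0.663).

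Dsg2 and Dsc2 encode desmoglein 2 and desmocollin 2, the cadherins that span the cleft of the cardiac desmosome. Dsg2 had 2947, 2344, 4308 and 6190.7 normalized counts in controls 1 to 4, and 4589.9, 4190.2 and 1977 in ICI-myocarditis 1 to 3. Dsc2 had 1658, 1268, 2632 and 3089 in the controls, and 2569, 2457 and 1031 in the ICI-myocarditis libraries. Both genes had their lowest value in ICI-myocarditis 3, their next lowest in control 2 and their highest in control 4, so that each group spanned most of the range of the other. Their log2 fold changes were -0.13 and -0.12, with standard errors of 0.396 and 0.400 and adjusted p-values of 0.862 and 0.874. Errors of that size leave changes in either direction possible.

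The pair kept an almost fixed proportion in spite of this spread. The ratio of Dsg2 to Dsc2 normalized counts, not corrected for length, averaged 1.82 ± 0.153 among controls (SD, n = 4) against 1.80 ± 0.107 in affected hearts (SD, n = 3), and lay between 1.64 and 2.00 in the 7 libraries. The ratio of Dsp to Dsg2 varied more, with 21.3 ± 6.89 in controls and 13.1 ± 5.81 in ICI-myocarditis, and its groups overlapped.

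Cdh2 encodes N-cadherin, the classical cadherin of the cardiac adherens junction. Its values were 9425, 5272, 11007 and 17113 normalized counts in controls 1 to 4, and 7215, 7467 and 4697 in ICI-myocarditis 1 to 3. As for Gja1 and Pkp2, the overlap rested on control 2. The log2 fold change was -0.64 with a standard error of 0.387 (adjusted p = 0.308), and without control 2 it was -0.94 with a standard error of 0.306 (adjusted p = 0.0578). The fall was smaller without control 4 (-0.37, adjusted p = 0.531) and without ICI-myocarditis 3 (-0.42, adjusted p = 0.682). Without control 2 the groups of 5 members (Gja1, Dsp, Pkp2, Jup and Cdh2) did not overlap, as for 18.8% of all genes in this direction.

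**Figure D2:**
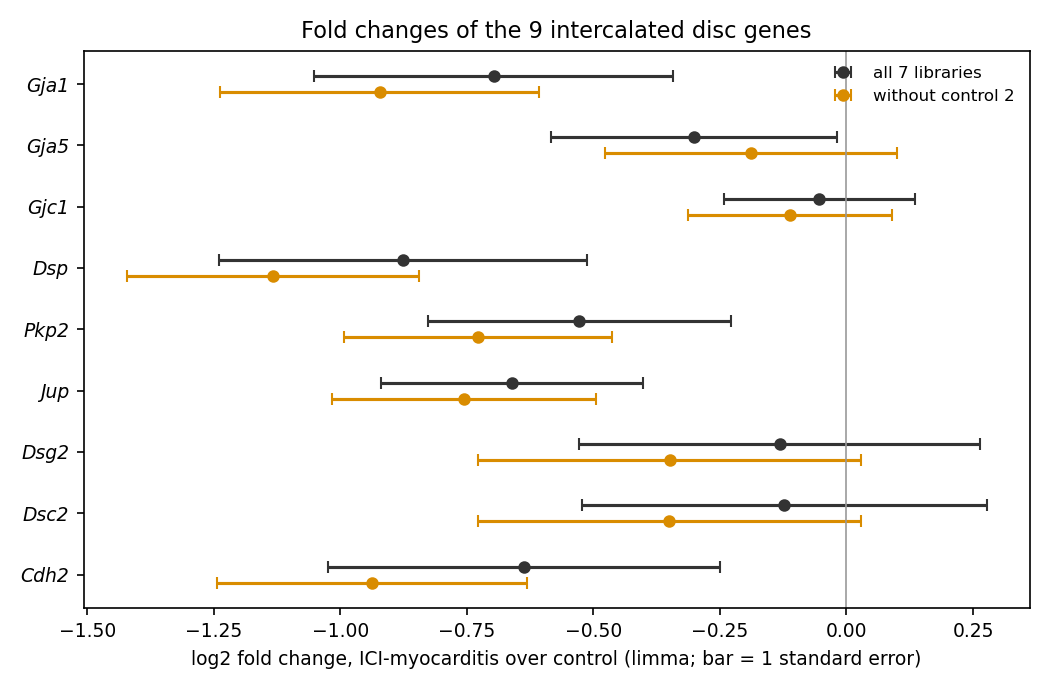
Log2 fold changes of the 9 genes, ICI-myocarditis over control, from limma with all 7 libraries (dark) and without control 2 (orange). Bars are 1 standard error, and points left of the line at 0 are lower in ICI-myocarditis: Dsp lies farthest left, at -0.88 and -1.13, and Gjc1, Dsg2 and Dsc2 lie nearest to 0 with all libraries.

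Levels of different genes were compared as normalized counts per kilobase of exon. Dsp was the most abundant, with a mean of 8236 in controls and 4303 in ICI-myocarditis, and was above the next gene in 7 of 7 libraries, 5.03 times as high in controls. Jup (1638 and 1032), Gja1 (1536 and 934), Cdh2 (1327 and 801) and Pkp2 (1054 and 717) formed a middle group with overlapping ranges. Jup exceeded Gja1 in only 3 of 7 libraries. Dsg2 (477 and 434) was above Dsc2 (410 and 383) in all 7, although their ranges overlapped. Gjc1 (198 and 193) and Gja5 (63.2 and 50.9) were the lowest in every library, and their control ranges did not overlap each other or that of Dsc2.

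The order of the group means was the same in controls and ICI-myocarditis. It depended on the length used in the middle of the range: per kilobase of the longest transcript, Gja1 ranked second, with 4051 in controls and 2464 in ICI-myocarditis, with Jup after it, at 3289 and 2073. The annotated exons of Gja1 add up to 10257 bases, against 3889 in its longest transcript. Dsp stayed first by that length in 7 of 7 libraries, at 2.05 times Gja1 in controls, although their control ranges overlapped. By the same length Dsc2 was above Gjc1 in 6 of 7 libraries, and the control ranges of these genes overlapped as well.

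**Figure D3:**
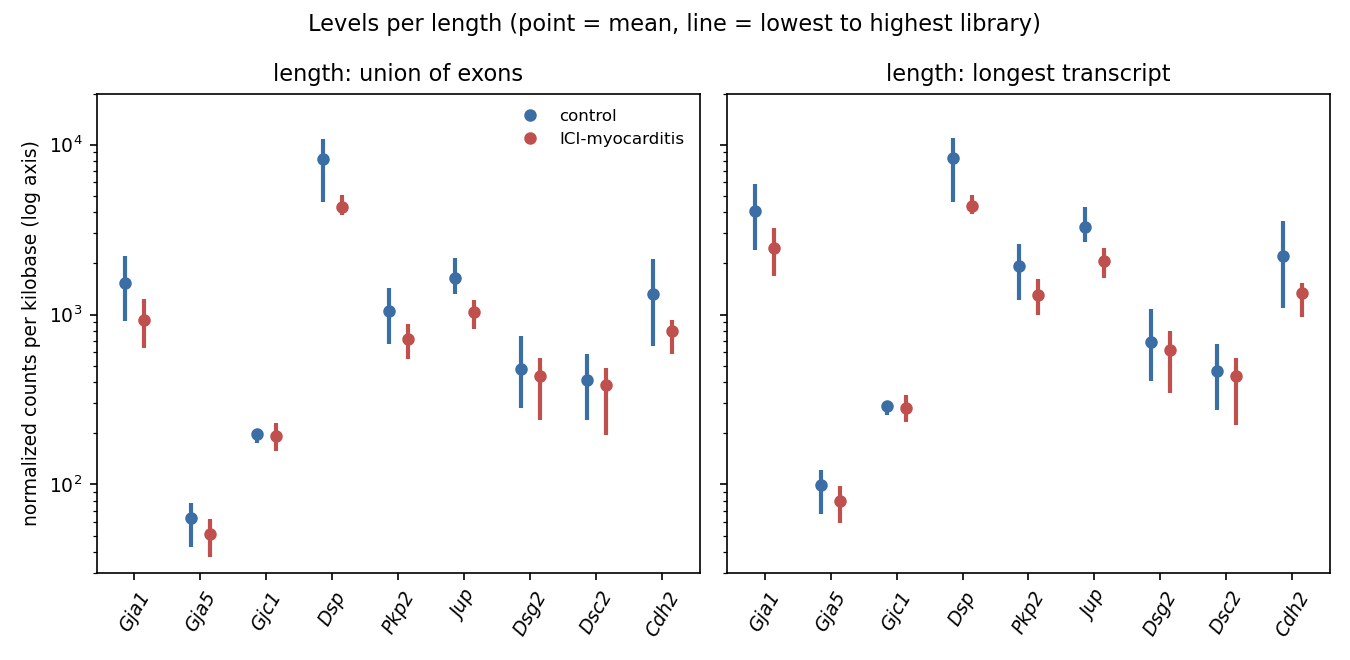
Normalized counts per kilobase (log axis) of the 9 genes by 2 measures of gene length, with points for group means and lines from the lowest to the highest library. Dsp is highest and Gja5 lowest in both panels, and Gja1 moves above Jup when the longest transcript is used.

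Heart muscle is only a part of these samples, and bulk RNA cannot tell fewer cells of a type from less RNA per cell. The 14 working cardiomyocyte genes, which encode contractile and calcium-handling proteins, had a mean log2 level of 17.60, 16.77, 17.49 and 18.04 in controls 1 to 4, and 16.98, 17.01 and 16.06 in ICI-myocarditis 1 to 3. Control 2 was again the lowest control and control 4 the highest. None of the 14 was called by limma and 2 had an unadjusted p under 0.05, while without control 2 the calcium release channel gene Ryr2 was called lower (log2 fold change -1.47, adjusted p = 0.0180). All 14 fold changes were below 0 with a median of -0.79, a larger shift than the members' median of -0.53. Over the same libraries the summed level of 8 leukocyte markers ranged from 8915 to 15846 normalized counts among controls, highest in control 2, and from 38822 to 57485 in ICI-myocarditis, and all 8 rose. In control 2, Cd3e had 250 normalized counts against 6.26 to 20.2 in the other controls, and Cd8a 572 against 22.5 to 42.4. Csf1r and Lyz2 were not highest in control 2. These markers were named after their values were seen. The part of leukocyte RNA in the members' levels was not tested.

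The cardiomyocyte mean itself differed by -0.795 between groups (ICI-myocarditis minus control). Subtracting it in each library shifts the difference of every gene by that same amount. Which members come near 0 therefore follows from their fold changes above. Gja5, Gjc1, Dsg2 and Dsc2 moved farther from 0. The difference between groups, ICI-myocarditis minus control, was -0.08 for Dsp, 0.10 for Gja1, 0.13 for Jup, 0.16 for Cdh2 and 0.27 for Pkp2 on the log2 scale, with overlapping groups for each. Gja5 (0.49) and Gjc1 (0.74) overlapped as well, Gjc1 only through control 2. Dsg2 lay at -6.08, -5.58, -5.42 and -5.44 relative to the cardiomyocyte mean in controls 1 to 4, and at -4.81, -4.98 and -5.11 in ICI-myocarditis 1 to 3. Dsc2 lay at -6.91, -6.47, -6.13 and -6.44, and at -5.65, -5.75 and -6.05. For these 2 members all ICI-myocarditis libraries were above all controls, by 0.66 and 0.67 on average. Of all genes tested, 26.5% stood apart in the same way, so that 2 of 9 was near the background. Without control 2, Gjc1 stood apart too, and 3 of 9 members compared with 63.6% of all genes. The same 2 members stood apart against the median of the 14 genes, where the background was 31.5%. No test was made on this scale.

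**Figure D4:**
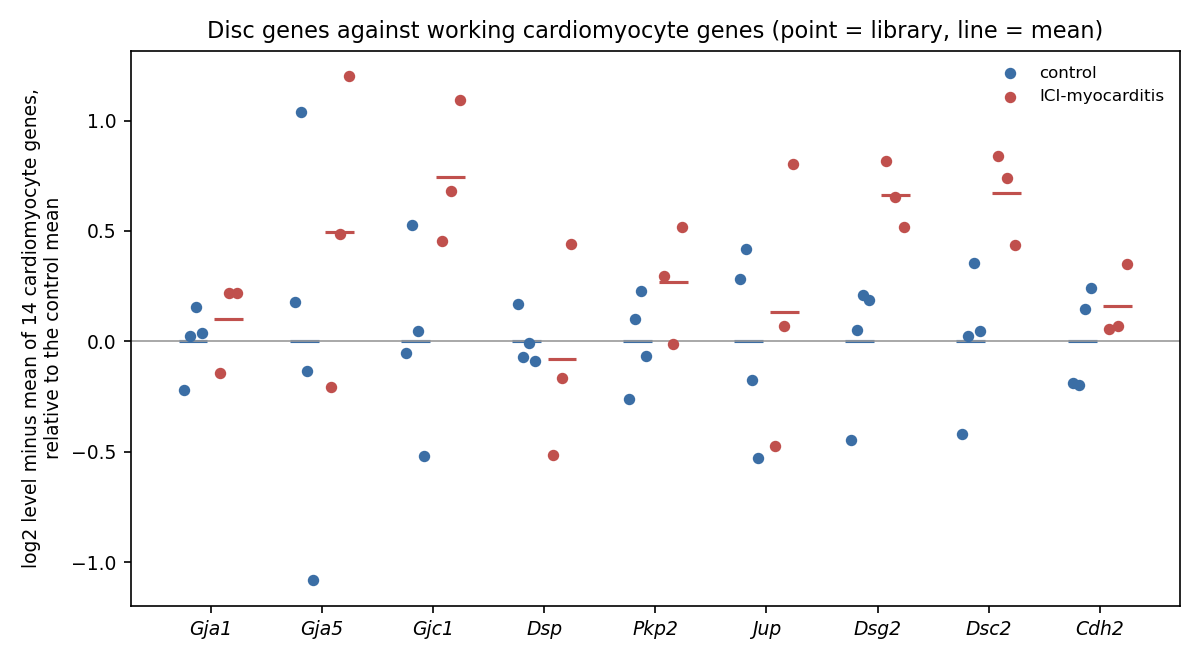
Log2 level of each disc gene minus the mean of 14 working cardiomyocyte genes in the same library, shown relative to the control mean (points are libraries, lines are group means). Dsg2 and Dsc2 have all 3 ICI-myocarditis libraries above all 4 controls, whereas Dsp, Gja1, Pkp2, Jup and Cdh2 overlap.

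Markers of other cells that carry desmosomal or cadherin genes were read in the same way. Of 9 mesothelial markers tested, Krt18 rose and the others did not pass, Krt18 being lost without control 2 (adjusted p = 0.0435 with it and 0.0511 without). Their summed level ranged from 519 to 1903 (controls) and from 570 to 1683 (ICI-myocarditis). Of 4 keratinocyte markers, Krt5, Krt14 and Krt1 were too low to be tested, with at most 28.2 normalized counts in any library. Krt10 had 60.4 to 136 in controls against 39.7 to 83.9 in affected hearts and was not called. Of 6 fibroblast markers, Col1a1 and Col1a2 rose, with sums of 34104 to 51752 and of 63416 to 124640 normalized counts. Of 8 mural cell markers 5 fell (sums of 51357 to 71003 and of 21106 to 32401), or 4 without control 2, where Myh11 had an adjusted p of 0.0501. Of 8 endothelial markers 4 fell (31639 to 81190 and 23290 to 30024). The part of these cells in the levels of Cdh2 and the other members was not tested.

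Likeness between genes was measured as the root mean square difference of their centred log2 levels over the 7 libraries, which share depth and cell mixture. The search for nearest genes left out tested genes with predicted-gene, clone, accession or date-like names and rows with repeated names. Dsg2 and Dsc2 were the closest pair of members, at 0.092. Of the genes searched, each was the nearest to the other, followed for both by Tmx2. Among the member pairs Gja1 and Cdh2 came next at 0.153, then Pkp2 and Cdh2 at 0.198. Gja5 was farthest from Dsg2 and from Dsc2, at 0.812. The nearest genes were Fastkd1 (0.089) and Ppp1r3d (0.101) for Gja1, Rgl1 (0.065) and Phldb2 (0.076) for Gja5, and Frmd6 (0.054) and Kctd1 (0.074) for Gjc1. For Dsp they were Fbxo40 (0.089) and Myo5b (0.090), for Pkp2 Btbd1 (0.051) and Psmg2 (0.065), for Jup Clstn1 (0.088) and Zswim5 (0.101), and for Cdh2 Ubl4 (0.064) and Oxsm (0.078).

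Among the other connexins and pannexins, 3 of 8 tested genes rose and none fell, with a median log2 fold change of 0.14. All 3 were scarce in controls, and Gjd3 and Gjb5 passed the filter on low values only through the ICI-myocarditis libraries, so that a difference followed from their being tested. Gjd3, a connexin of the conduction system in the mouse, had 4.03, 48.1, 2.23 and 3.75 normalized counts in controls 1 to 4, and 417, 453 and 268 in ICI-myocarditis 1 to 3. Control 2 was the only control with more than a few reads. It rose by 5.56 on the log2 scale with a standard error of 0.844 (adjusted p = 0.00437), and by 6.44 without control 2. Panx1, a channel that releases ATP from cells, rose by 3.09 on the log2 scale with a standard error of 0.327 (adjusted p = 0.00251), from values between 65.1 and 121 normalized counts to values between 505 and 1037. Gjb5, a connexin known from skin, rose by 3.67 with a standard error of 0.691 (adjusted p = 0.00890), from at most 4.03 to between 21.5 and 61.1. The size of the Gjb5 change depended on the pseudocount, with 4.07 at 0.5 and 2.44 at 5. Each of the 3 rose while the leukocyte markers rose, and the part of leukocyte RNA was not tested. The remaining 12 of the 20 listed genes were too low to be tested.

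Of 14 other desmosomal genes, 6 could be tested, with a median log2 fold change of -0.24. Pkp3, a plakophilin of epithelia, had 17.1, 51.8, 11.2 and 8.76 normalized counts in controls 1 to 4 and 198 to 236 in ICI-myocarditis. It rose by 3.54 on the log2 scale (standard error 0.548, adjusted p = 0.00467). Ppl, periplakin, a plakin like desmoplakin, had between 328 and 426 normalized counts in the 4 controls, against 176 to 249 in affected hearts. It fell by 0.95 (standard error 0.216, adjusted p = 0.0184), and the adjusted p was between 0.0623 and 0.0831 without ICI-myocarditis 1, ICI-myocarditis 2 or control 3, and 0.104 with scaling by library total. Desmogleins and desmocollins other than Dsg2 and Dsc2 did not reach the level needed for the test.

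Partners at the adherens junction and area composita included 25 tested genes, of which 2 fell, 1 rose and 19 had fold changes below 0, with a median of -0.20. Ctnna3, the alpha-T-catenin that binds plakophilin 2 in the area composita, had 2350.2, 2156, 2756 and 3177 normalized counts in controls 1 to 4, and 1566, 1594 and 889 in ICI-myocarditis 1 to 3. It fell by 0.98 on the log2 scale (standard error 0.254, adjusted p = 0.0303). Tjp1, the scaffold ZO-1 that binds Cx43, fell by 0.89 (standard error 0.222, adjusted p = 0.0264), from between 5524 and 8131 normalized counts to between 3309.9 and 4161. Tmem43, an inner nuclear membrane protein known from arrhythmogenic cardiomyopathy, rose by 0.73 (standard error 0.195, adjusted p = 0.0347). The call of each depended on single libraries. Tjp1 and Tmem43 did not pass without ICI-myocarditis 1, 2 or 3 or without control 1 or 3, with adjusted p-values from 0.0712 to 0.0954 and from 0.0574 to 0.154. Ctnna3 did not pass without ICI-myocarditis 2 or 3 or without control 1, 3 or 4 (0.0504 to 0.117). With scaling by library total Tjp1 had an adjusted p of 0.104. Without control 2, 5 of the 25 fell and 1 rose. The 3 gained were Ctnnb1, beta-catenin (-0.75, adjusted p = 0.0437), Arvcf, a catenin (-0.67, 0.0384), and Tmem65, an intercalated disc membrane protein (-1.09, 0.0294), named for this change after their values were seen.

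Other cadherins moved in both directions, and Cdh13 was called as well without control 2 (log2 fold change -0.77, adjusted p = 0.0240). Of 9 tested, Cdh1, E-cadherin, rose by 4.33 on the log2 scale (standard error 0.803, adjusted p = 0.00857), from at most 9.87 normalized counts to between 66.7 and 172. It also passed the filter only through the ICI-myocarditis libraries, and its log2 fold change was 3.59 without control 3 and 3.35 with a pseudocount of 5. Cdh4, R-cadherin, fell by 2.41 (standard error 0.477, adjusted p = 0.0106), from between 47.5 and 73.6 to between 4.59 and 18.1. The median of the 9 was -0.58. Of 14 kinases and trafficking factors of Cx43, Src, a tyrosine kinase that acts on it, rose by 1.20 (standard error 0.324, adjusted p = 0.0358), and the list's median was -0.08. Src did not pass without ICI-myocarditis 2 or 3 or without control 3 or 4, with adjusted p-values from 0.0629 to 0.151. None of 12 transcription factors of cardiac connexin genes was called by limma with all libraries. The lowest p-values were those of Mef2c, with a log2 fold change of -0.58 (adjusted p = 0.0699), and Tbx3, with -0.96 (adjusted p = 0.0726), the 2 that had an unadjusted p under 0.05. DESeq2 and limma-voom on recovered reads called both. Without control 4, limma called Tbx3 (log2 fold change -1.205, adjusted p = 0.0176). The median of the 12 was -0.30. For comparison, 11.7% of all genes tested were called higher and 4.00% lower.

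**Figure D5:**
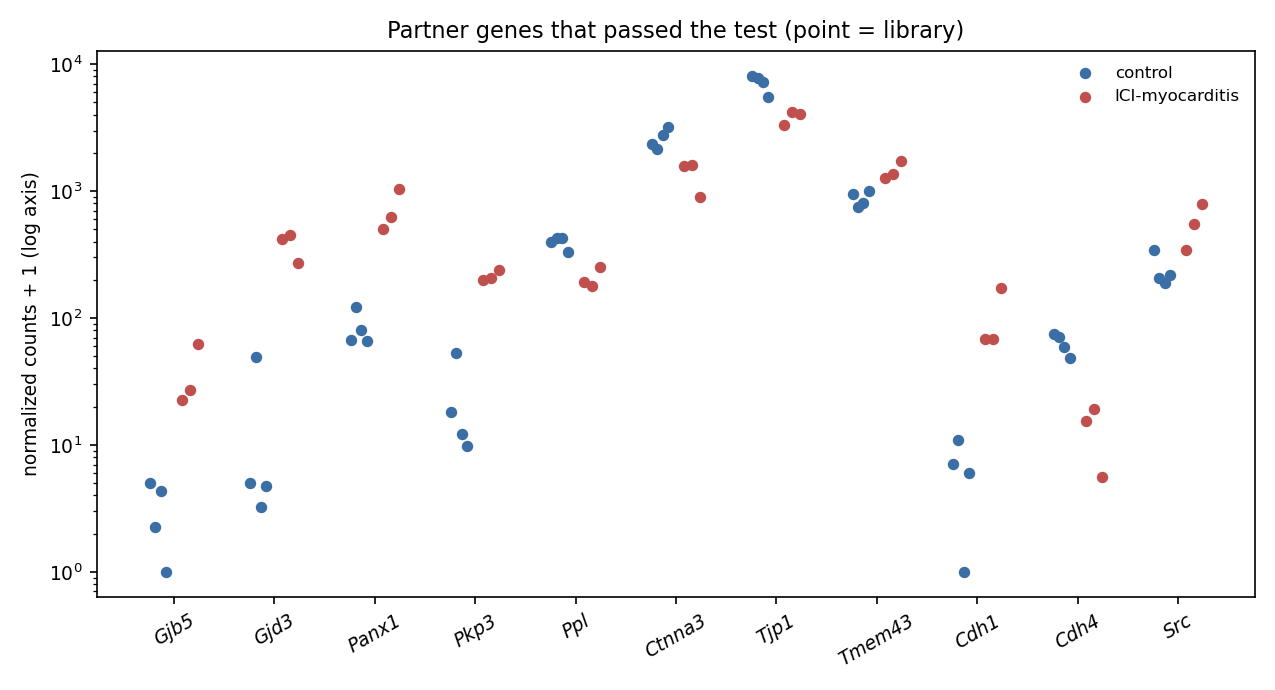
Normalized counts plus 1 (log axis) in each library for the 11 partner genes that passed the test, controls in blue and ICI-myocarditis in red. Gjb5, Gjd3, Panx1, Pkp3 and Cdh1 lie higher in each ICI-myocarditis library than in the 4 controls, and Ppl, Ctnna3, Tjp1 and Cdh4 are lower.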

How the data were processed

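RNA from 7 mouse ventricles was sequenced as stranded total RNA, paired-end, per the labels. Reads were processed with STAR 2.7.3 and GRCm38 (mm10), per the submitters' processing notes. The counting program, the annotation and its use of strand are not given in the sources used here. The library columns hold a signal deposited by the authors, gene counts divided by a size factor, as the values show. The authors' deposited table also holds a log2 fold change with its error, a test statistic (score) and p-values. Reads were recovered from the smallest step of each column, with 100% of values whole within 0.1. In control 1 the step was so near 1 that this is a weaker sign.

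The test was limma 3.58.1 (R 4.3.3, trend and robust variance) on log2(normalized count + 1) for genes that reached 10 normalized counts in 3 or more libraries, with Benjamini-Hochberg adjustment over all of them. Fold changes are on that scale and understate those of low genes. edgeR 4.0.16, DESeq2 1.42.0 and limma-voom on recovered reads, other pseudocounts (0.5 and 5), filters (none and 50), scaling by library total, a replicate block and leaving out each library were alternatives. Rows with names turned into dates numbered 27 and held 0.142% of the reads. Gene lengths and overlaps came from GENCODE for GRCm38, and older symbols were matched for 5 listed genes (Afdn as Mllt4, the nectins as Pvrl1, Pvrl2 and Pvrl3, Adgre1 as Emr1). Muc16 was not matched. Some marker genes are not reported here. Named genes were all members, the called genes of each partner list or else the 2 with the lowest p, and the 2 nearest genes of each member. Members, lists and rules were chosen with earlier results of these data known.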

Additional observations from a re-analysis of the deposited data

Results flagged for a closer look

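Gjc1 was the only member with a control far from the other controls by Dixon's criterion. Control 2 had 876 normalized counts against 1016 to 1043 in the other 3, a gap of 0.841 of the whole range of the 4 libraries, above the critical value for 4 samples. All 9 members were examined in the controls, and chance alone marks about 1 in 20 such groups. Control 2 was also the lowest control for 7 other members.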

How the results depend on the processing

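Gja1, Gja5, Dsp, Pkp2, Jup and Cdh2 kept fold changes below 0 under all 17 alternatives. Dsp ranged from -1.13 to -0.72 and passed under 3: DESeq2 (adjusted p = 0.0180), limma-voom with quality weights (0.0255) and without control 2 (0.0229), with adjusted p-values from 0.0180 to 0.479 over all 17. Jup passed in DESeq2 only (0.0436, range 0.0436 to 0.382). DESeq2 thus called 2 members, against 8.40% of genes called lower. limma-voom called 1 member, where 1518 of 15258 genes were called lower. Leaving out each library in turn gave 0 to 1, the 1 being Dsp without control 2, where 7.19% of genes were called lower. Gjc1, Dsg2 and Dsc2 changed sign within their errors. Gjc1 was 0.050 in limma-voom, 0.107 with scaling by library total, and -0.186 to 0.082 when each library was left out (highest without ICI-myocarditis 3). Dsg2 was 0.028 with that scaling and -0.356 to 0.251 when each library was left out, above 0 without ICI-myocarditis 3 and without control 4 (0.118). Dsc2 was 0.037 with that scaling and -0.353 to 0.305 when each was left out, above 0 without ICI-myocarditis 3, control 3 (0.001) or control 4 (0.078). The causes were not tested.

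Over all genes, 2397 were called (1787 higher, 610 lower), 4003 in limma-voom (2485 and 1518), 3441 in DESeq2 (2160 and 1281), and 986 (without ICI-myocarditis 3) to 3340 (without control 2) when each library was left out. Scaling by library total moved the median of all genes from -0.02 to 0.14 and gave 1674 higher and 311 lower. Of the 11 partner genes called, Panx1, Pkp3 and Cdh4 passed under all 17 alternatives, and Ppl, Ctnna3, Tjp1, Tmem43 and Src under 10 to 12. Gjd3 passed under all 17, Gjb5 under the 13 and Cdh1 under the 14 that tested them, but these 3 were tested only through the libraries where they are high, and Gjb5 and Cdh1 were not tested when an ICI-myocarditis library was left out. Tmem43 and Src did not pass in limma without trend and robust variance (adjusted p = 0.0549 and 0.0503). Called adherens junction partners numbered 3, with 0 to 8 over the alternatives.

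With the replicate number as a block, 1780 genes and 0 members were called, and Dsg2 and Dsc2 were 0.118 and 0.078. Ppl, Ctnna3, Tjp1, Tmem43 and Src did not pass (adjusted p = 0.0553 to 0.120), whereas Tbx3 did (log2 fold change -1.205, adjusted p = 0.035). The numbers did not pair the libraries: deviations of same-numbered libraries from their group means correlated at -0.271, -0.206 and -0.078, and control 4 has no partner.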
